A study of Mus musculus with 14 samples.

Results

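The DNA replication genes described here are 41 genes that license, open and copy DNA in S phase: 8 licensing genes, 6 genes of helicase activation, 5 polymerase genes, 7 genes of the sliding clamp and lagging strand, 4 genes of nucleotide supply, 6 genes of chromatin assembly and histones, and 5 genes of fork protection and repair. Membership is by name and no measured value sets it, though the list was drawn up with earlier results of these data known. Each was matched to its Ensembl identifier in a table of 52636 gene identifiers, and all 41 were found and were among the 11994 genes with enough counts to be tested. Their mean counts per library ran from 40.7 for Gins1 to 2904 for Lig1, and the lowest count of any of them in any library was 16.

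The RNA came from leukemic progenitors sorted from mice that carried transplanted I1DN cells, a mouse acute myeloid leukemia with mutant IDH1 whose alleles the labels do not spell out. AG120 (AG-120, also known as ivosidenib) inhibits mutant IDH1, the enzyme form that makes 2-hydroxyglutarate. Sorting kept the cKit-positive, CD11b-negative cells of every mouse. QuantSeq libraries, which read a transcript near its polyadenylated end, were made from them, and counts therefore do not scale with length. Each library is 1 mouse, and no strain or age is stated for the mice. The 14 libraries form 5 groups, all from mice carrying the same I1DN leukemia: vehicle day 5 with 3 mice and AG120 day 5 with 3, vehicle day 14 with 2 and AG120 day 14 with 2, and relapse with 4, in which a 28-day course of AG120 was followed by return of the disease. No vehicle group matches the relapse group in time. All the leukemia comes under the single name I1DN, so the p-values measure the spread between mice and not between leukemias.

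Before a cell can copy its DNA, each origin is licensed: the origin recognition complex, Cdc6 and Cdt1 load the Mcm2 to Mcm7 ring onto DNA. Cdc45, the GINS complex and Mcm10 then turn the ring into a moving helicase, and primase and the polymerases copy behind it. Replication factor C loads the Pcna clamp, which holds some of these polymerases on DNA. Many of these genes are known targets of the E2F transcription factors, and licensing factors and ribonucleotide reductase rise in cells that leave quiescence.

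Total counts per library were 4995738 to 8691708, of which ribosomal RNA gene models took 50.9% to 74.8%, leaving 1259982 to 3358874 counts for all other genes. That share moved with treatment at day 5, 50.9% to 59.8% with vehicle and 62.5% to 65.3% with AG120, as did the number of genes detected, 19149 to 19770 and 17151 to 18095. At day 14 it was 55.8% and 68.2% with vehicle and 74.8% and 63.1% with AG120, where replicate 1 also had the lowest scaling factor, 0.672. With those gene models removed, 15 of the 41 passed at day 5 (13 higher, 2 lower) and 17 at day 14, close to the 16 and 17 given below, and without AG120 day 14 replicate 1, 10 passed at day 14. How many of all genes passed in these refits is not given. Of the counts outside the ribosomal RNA gene models, the 41 replication genes made up 0.730% to 0.744% with vehicle and 0.729% to 0.775% with AG120 at day 5. At day 14 the shares were 0.726% to 0.734% and 0.818% to 0.857%, and in relapse 0.544% to 0.682%. At day 5 the 41 include Rfc2, at 2148 to 2520 counts per library with vehicle and 397 to 560 with AG120. The reads of Rfc2 cannot be told from those of Lat2, a gene that overlaps it. Shares without Rfc2 are not given. Values below are in CPM, counts relative to library sizes scaled by TMM, and a gene "passed" when its adjusted p from edgeR's quasi-likelihood test was under 0.05 over all 11994 genes. Kit, the sorted receptor, went at day 5 from 35.6 ± 2.15 CPM (SD, n = 3) under vehicle to 26.9 ± 5.34 (SD, n = 3) under AG120, which did not pass (adjusted p = 0.393), and at day 14 from 35.8 ± 1.25 (SD, n = 2) to 11.6 ± 0.0259 (SD, n = 2), which did (adjusted p = 0.022). Relapse stood at 35.01 ± 18.5 (SD, n = 4). Itgam, which encodes CD11b, was detected in every group despite the sort, at mean CPM of 12.7, 3.12, 16.2, 6.98 and 29.7 in the same order, and passed as lower under AG120 at day 5 (adjusted p = 0.0103) and not at day 14 (0.154). Idh1 itself was at 33.5, 20.6, 39.97, 10.3 and 38.6, and passed as lower at day 14 (adjusted p = 0.00254) and not at day 5 (0.079).

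Cdc6, Cdt1, Mcm10 and Rrm1 were among the genes that rose under AG120 at both days. At day 5, 15 of the 41 rose and 1, Rfc2, fell, while 20.1% of all genes tested rose and 19.3% fell. The median log2 fold change of the 41 was 0.31, against 0.00 over all genes tested. At day 14, 16 rose and 1, again Rfc2, fell, against 16.8% and 17.9% of all genes, and the median was 0.47, against -0.01 over all genes. By role, the genes that rose at day 5 were 3 of 8 in licensing, 1 of 6 in helicase activation, 2 of 5 polymerase genes, 3 of 7 in the clamp and lagging strand, 1 of 4 in nucleotide supply, 2 of 6 in chromatin and histones, and 3 of 5 in fork protection. In bulk samples such as these, fewer cells of a type and less RNA per cell cannot be told apart, nor can more cells in S phase and more RNA of these genes per cell.

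Markers of the red cell lineage moved with the same comparisons. The summed CPM of the 14 erythroid markers found of 15 listed was 110 to 180.1 with vehicle and 628 to 765 with AG120 at day 5, and 151 to 193 with vehicle and 1801 to 2060 with AG120 at day 14. Of those 14, 8 passed as higher at day 5 and 11 at day 14. The progenitor pair Kit and Cd34 went from a sum of 161 to 184 to one of 31.2 to 44.5 at day 5, where Cd34 passed as lower and Kit did not, and from 177 to 181 to 16.1 to 17.4 at day 14, where both passed. Most of that sum is Cd34, at 138.5 CPM in vehicle and 10.1 in AG120 at day 5. The 10 neutrophil markers summed to 1157 to 1882 in vehicle and 447 to 479 in AG120 at day 5, where 3 passed as lower, and to 1860 to 1978 and 1433 to 1828 at day 14, where 1, Mpo, did. At day 14, 7 of the 10 had a positive value, with a median of 0.33 over the list and none higher past the threshold, while Mpo changed by -2.54 (adjusted p = 0.0149). Monocyte markers summed to 25.01 to 28.1 and 11.2 to 13.8 at day 5 and to 23.2 to 30.5 and 15.2 to 16.98 at day 14, and those of T and NK cells stayed at 2.06 CPM or less and those of B cells at 3.02 or less in every library. The part of these shifts in the values of the replication genes was not tested.

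**Figure D1:**
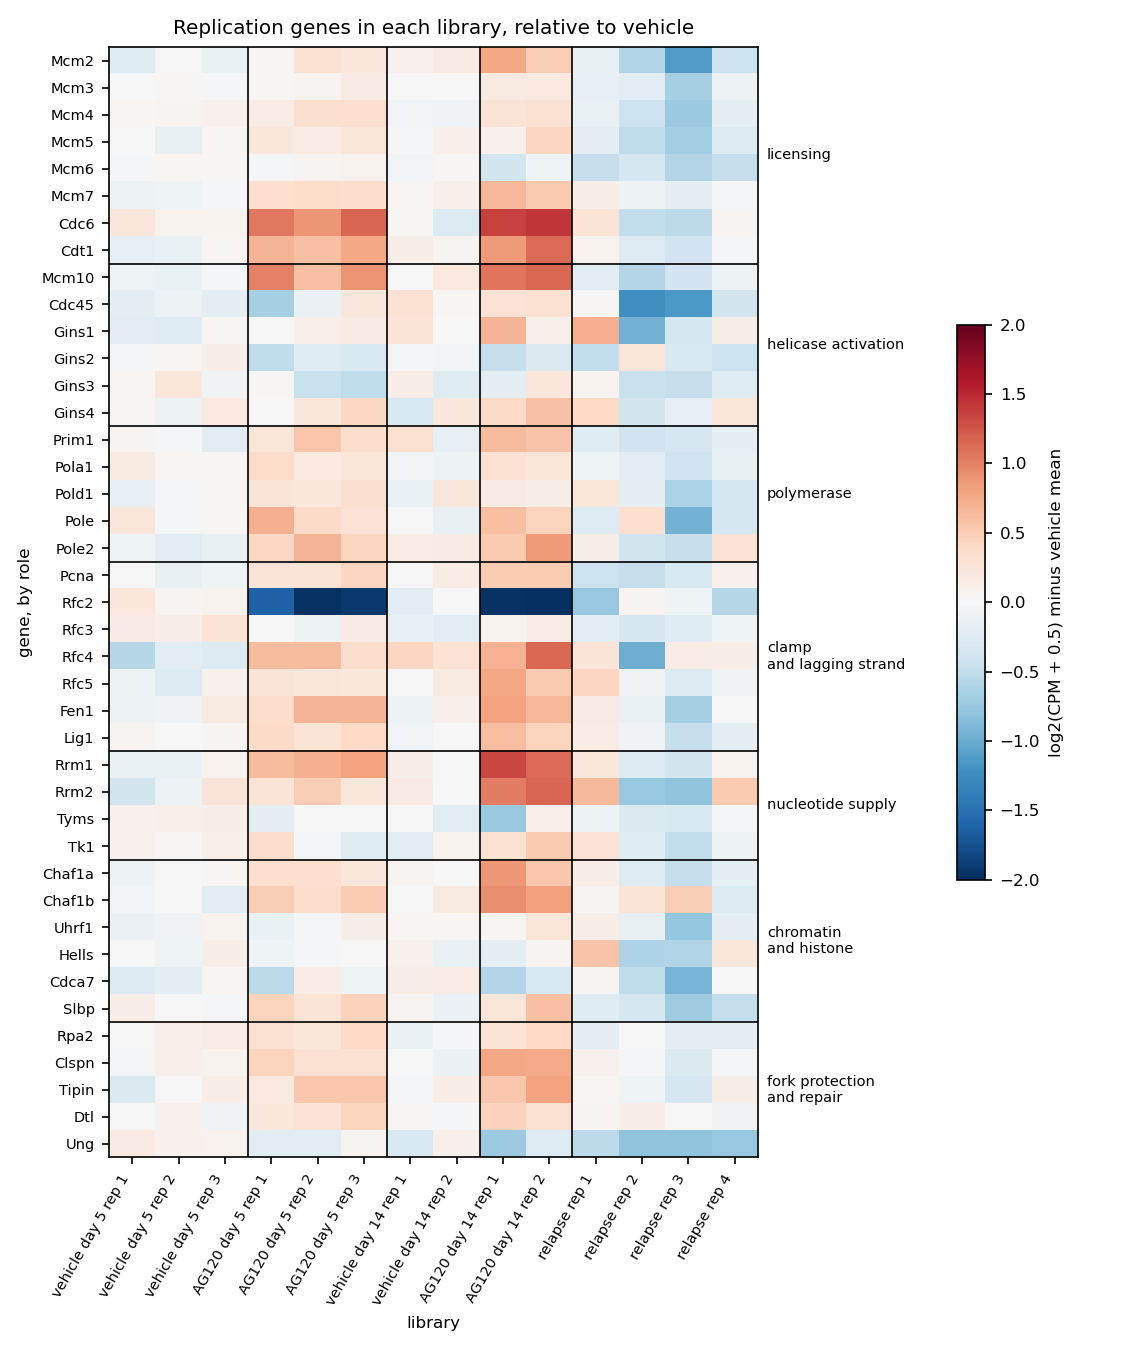
Log2(CPM + 0.5) of each of the 41 replication genes (rows, by role) in each of the 14 libraries (columns, by group), minus the mean of the vehicle day 5 and vehicle day 14 means. The color scale ends at -2 and 2, and red is above vehicle. Cdc6, Cdt1, Mcm10 and Rrm1 are red in all 5 AG120 libraries, Rfc2 is blue in all 5, and relapse replicate 3 is blue for most genes.

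Promoter windows of 6 of these genes are shown because they belong to the 4 with the largest rise at day 5 (Cdc6, Cdt1, Mcm10 and Rfc4) and to 2 with the most E2F letters (Mcm6 and Mcm3, the latter taken from a tie with Mcm5, Mcm7 and Rfc3). Each runs from 250 bases before to 50 after a start site, 5′ to 3′ on the strand of the gene, from RefSeq on GRCm38.p6. The Cdc6 window lies at chr11:98907901-98908200 (+ strand), that of Cdt1 at chr8:122567765-122568064 (+), that of Mcm10 at chr2:5012742-5013041 (- strand), that of Rfc4 at chr16:23127681-23127980 (-), that of Mcm6 at chr1:128359656-128359955 (-) and that of Mcm3 at chr1:20820263-20820562 (-). Capitals mark every match, on either strand, to the E2F letters TTTGGCGC, TTTGCCGC, TTTCGCGC or TTTCCCGC.
Cdc6: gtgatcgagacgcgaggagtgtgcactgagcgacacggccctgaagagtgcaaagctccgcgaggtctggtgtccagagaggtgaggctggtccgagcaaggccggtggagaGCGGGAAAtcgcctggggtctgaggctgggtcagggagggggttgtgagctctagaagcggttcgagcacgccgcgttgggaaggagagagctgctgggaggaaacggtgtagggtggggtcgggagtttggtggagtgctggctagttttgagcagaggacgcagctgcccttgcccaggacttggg
Cdt1: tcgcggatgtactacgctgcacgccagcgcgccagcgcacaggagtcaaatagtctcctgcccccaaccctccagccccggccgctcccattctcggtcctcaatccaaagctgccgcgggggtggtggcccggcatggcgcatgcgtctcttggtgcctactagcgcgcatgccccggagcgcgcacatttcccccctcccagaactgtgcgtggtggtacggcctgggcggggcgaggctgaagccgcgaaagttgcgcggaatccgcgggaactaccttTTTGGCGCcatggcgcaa
Mcm10: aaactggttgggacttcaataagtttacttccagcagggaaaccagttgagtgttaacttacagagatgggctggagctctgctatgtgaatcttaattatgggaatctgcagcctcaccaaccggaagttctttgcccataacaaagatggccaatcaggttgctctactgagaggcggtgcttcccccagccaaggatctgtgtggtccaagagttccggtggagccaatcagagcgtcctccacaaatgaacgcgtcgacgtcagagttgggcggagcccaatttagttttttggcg
Rfc4: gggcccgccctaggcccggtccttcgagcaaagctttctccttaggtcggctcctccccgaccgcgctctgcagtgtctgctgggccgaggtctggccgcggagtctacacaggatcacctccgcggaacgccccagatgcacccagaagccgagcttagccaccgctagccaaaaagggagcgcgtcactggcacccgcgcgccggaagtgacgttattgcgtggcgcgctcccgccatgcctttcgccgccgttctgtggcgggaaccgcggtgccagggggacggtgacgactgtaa
Mcm6: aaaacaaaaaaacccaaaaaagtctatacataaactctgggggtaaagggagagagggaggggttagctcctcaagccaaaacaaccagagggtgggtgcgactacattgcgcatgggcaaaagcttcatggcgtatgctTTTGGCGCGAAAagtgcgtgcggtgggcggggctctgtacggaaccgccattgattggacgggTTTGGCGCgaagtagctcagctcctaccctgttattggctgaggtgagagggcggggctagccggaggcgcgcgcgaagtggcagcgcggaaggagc
Mcm3: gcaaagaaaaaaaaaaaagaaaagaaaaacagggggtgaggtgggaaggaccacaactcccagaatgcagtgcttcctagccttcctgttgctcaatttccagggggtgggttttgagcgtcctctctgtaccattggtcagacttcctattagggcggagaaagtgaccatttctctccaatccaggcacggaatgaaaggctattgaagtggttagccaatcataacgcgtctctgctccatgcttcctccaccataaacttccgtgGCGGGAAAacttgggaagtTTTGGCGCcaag
Counted to the leftmost base of a match, with 1 as the start site, Cdc6 and Cdt1 each held 1 match, at -138 and at 33, Mcm6 held 3, at -110, -106 and -47, where the pair at -110 and -106 overlap, and Mcm3 held 2, at 20 and 39. The windows of Mcm10 and Rfc4, among the genes that rose most, held no complete match. That of Mcm10 ends in TTTGGCG, so a match cut off by its edge could not be seen. Windows were found for 34 of the 41 genes, and 17 of these 34 (50%) held a match, against 2.6% of 27025 genes with a window. Among the 34, a match was found in 6 of the 14 that rose at day 5 (42.9%) and in 11 of the 20 that did not pass (55.0%). The CCAAT box (CCAAT on either strand) was found in 58.8% of the 34 and in 41.1% of all genes, with 1 such box overlapping an E2F match in the windows of these genes, and the E-box CACGTG in 11.8% and 8.1%. The match of Cdc6 lies inside the gene as GENCODE places it, because its window starts after the GENCODE start at chr11:98907801. A match describes the letters only.

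In licensing, the loaders Cdc6 and Cdt1 had the largest rises. Cdc6, the ATPase that brings the Mcm ring to the origin (chr11:98907801-98923940, GRCm38), was at 37.2, 33.1 and 33.1 CPM in vehicle day 5 and at 66.6, 58.7 and 71.2 in AG120 day 5, and at 32.3 and 26.2 in vehicle day 14 and 82.3 and 86.1 in AG120 day 14. No AG120 library overlapped a vehicle library at either day. Its log2 fold change was 0.93 (SE 0.18, adjusted p = 0.000613) at day 5 and 1.53 (SE 0.22, adjusted p = 6.01e-05) at day 14, the latter a 2.88-fold rise.

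Cdt1, the partner of Cdc6 in loading (chr8:122568015-122573554), was at 37.7, 38.8 and 43.4 CPM in vehicle day 5 against 68.4, 64.7 and 72.8 in AG120 day 5, and at 45.9 and 44.3 against 76.9 and 93.1 at day 14. The groups were again apart, with log2 fold changes of 0.78 (SE 0.13, adjusted p = 0.000209) and 0.92 (SE 0.16, adjusted p = 0.000364). A gene model named Gm20388 overlaps the Cdt1 locus on the same strand.

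Of the 6 subunits of the ring itself, 1 passed. Mcm7 was at 125, 128 and 132 CPM in vehicle day 5 and at 171, 174 and 172 in AG120 day 5, and it rose at both days, by 0.43 (SE 0.10, adjusted p = 0.00395) and 0.53 (SE 0.13, adjusted p = 0.00443) on the log2 scale. The other 5 subunits did not pass at either day. Their log2 fold changes at day 5 were 0.31 for Mcm2, 0.08 for Mcm3, 0.21 for Mcm4, 0.23 for Mcm5 and 0.02 for Mcm6, and at day 14 they were 0.51, 0.18, 0.36, 0.24 and -0.21 in the same order. Mcm3, the licensing gene with the highest mean CPM, was at 181, 186 and 176 CPM in vehicle day 5 and 183, 188 and 202 in AG120 day 5, which overlap, and its 95% interval at day 5 ran from -0.19 to 0.34. Mcm6 was at 136 and 143 CPM in vehicle day 14 and at 108 and 132 in AG120 day 14. Mcm7 shares exon bases with Cops6 on the opposite strand (64 bases), and the log2 CPM of the 2 genes had a Pearson r of 0.907 over the 14 libraries, which share their groups. Cops6 itself rose by 0.50 at day 5 (edgeR adjusted p = 0.0036), and its day 14 value of 0.24 (0.239) did not pass. Mcm7 also shares 321 bases with Ap4m1 on the opposite strand, with an r of -0.694, and overlaps the microRNA genes Mir25 and Mir93. Ap4m1 passed at neither day.

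In helicase activation, Mcm10 alone passed. Mcm10, which helps the loaded helicase to start (chr2:4989714-5012791), was at 21.0, 20.3 and 21.7 CPM in vehicle day 5 and 45.5, 34.2 and 42.2 in AG120 day 5, and at 22.2 and 25.7 in vehicle day 14 and 47.7 and 50.1 in AG120 day 14. Every AG120 library was above every vehicle library, and the log2 fold change was 0.95 (SE 0.14, adjusted p = 6.77e-05) at day 5, the largest rise of the 41 at that day, and 1.03 (SE 0.18, adjusted p = 0.000269) at day 14. Cdc45, the helicase cofactor, was at 9.24, 9.82 and 9.32 CPM in vehicle day 5 and 6.54, 9.73 and 12.4 in AG120 day 5, with log2 fold changes of 0.01 (95% interval -0.59 to 0.61) and 0.14 at day 14.

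The 4 GINS subunits, which complete the helicase, gave log2 fold changes at day 5 of 0.24 for Gins1, -0.39 for Gins2, -0.36 for Gins3 and 0.19 for Gins4, none past the threshold. Gins2, the gene of this role with the highest mean CPM, was at 75.9, 79.9 and 84.3 CPM in vehicle day 5 and 54.6, 65.7 and 63.0 in AG120 day 5. Its groups did not overlap, yet its adjusted p was 0.0616. It passed as lower under all 6 of the other settings that kept every library (adjusted p 0.00018 to 0.0462), and under 0 of the 6 fits that left out a library. The reads given to Gins2 are uncertain: it shares 2758 exon bases with Gse1 on the opposite strand, the mean counts were 465 for Gins2 and 485 for Gse1, and the log2 CPM of the pair had a Pearson r of 0.991 over the 14 libraries.

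Among the polymerase genes, Prim1 rose at both days and Pole2 at day 5. Prim1, the catalytic subunit of primase, was at 21.2, 19.9 and 17.5 CPM in vehicle day 5 and 24.3, 30.2 and 26.3 in AG120 day 5, with log2 fold changes of 0.47 (SE 0.15, adjusted p = 0.0179) and 0.53 (SE 0.18, adjusted p = 0.0328). Pole2, a subunit of polymerase epsilon, rose by 0.72 (SE 0.22, adjusted p = 0.0172) at day 5, and at day 14 its value was 0.58 (adjusted p = 0.113). It shares 245 exon bases with Gm49384 on the same strand, with a Pearson r of 0.821. Gm49384 itself rose by 0.963 at day 5 (edgeR adjusted p = 0.000762) and by 1.215 at day 14 (0.000717). The mean counts were 44.4 for Pole2 and 41.8 for Gm49384, so the reads given to Pole2 are uncertain. Pola1, the catalytic subunit of polymerase alpha and the polymerase gene with the highest mean CPM, was at 95.2, 86.8 and 85.0 CPM in vehicle day 5 and 109, 96.8 and 99.3 in AG120 day 5. These groups did not overlap, and its values of 0.19 (adjusted p = 0.174) and 0.35 (adjusted p = 0.054) did not pass. Pold1 and Pole, the catalytic subunits of polymerases delta and epsilon, gave 0.31 and 0.41 at day 5 and 0.08 and 0.62 at day 14, also short of the threshold.

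**Figure D2:**
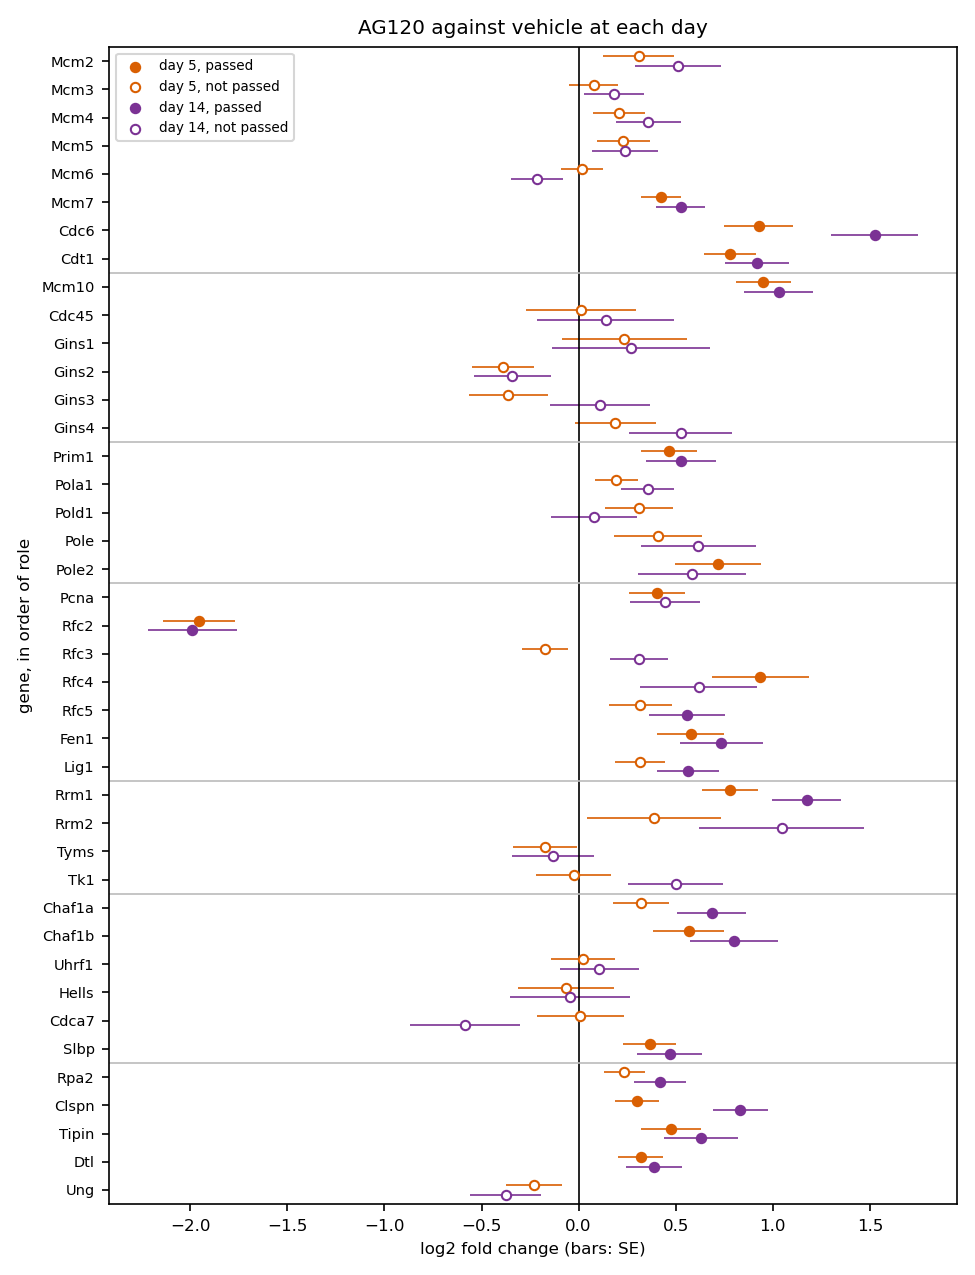
Log2 fold change of AG120 against vehicle for each of the 41 genes, at day 5 and at day 14, with standard errors as bars. Filled points passed edgeR's test. Cdc6 reaches 1.53 and Rrm1 1.18 at day 14, and Rfc2 lies near -2 at both days.

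In the clamp and lagging strand group, Fen1 rose at both days, Pcna and Rfc4 at day 5, and Lig1 and Rfc5 at day 14. Pcna, the sliding clamp, rose by 0.40 (SE 0.14, adjusted p = 0.0336) at day 5, and its day 14 value of 0.44 had an adjusted p of 0.0651. Lig1, the ligase that seals Okazaki fragments, was at 423, 408 and 424 CPM in vehicle day 5 and 533, 493 and 538 in AG120 day 5. Its log2 fold change was 0.32 (SE 0.13, adjusted p = 0.0593) at day 5 and 0.56 (SE 0.16, adjusted p = 0.0108) at day 14, when the libraries were at 393 and 407 in vehicle and 626 and 557 in AG120. The groups did not overlap at either day.

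Rfc4, a subunit of the clamp loader (chr16:23113943-23127737), was low, at 5.83, 7.5 and 7.24 CPM in vehicle day 5 and 14.0, 14.1 and 11.5 in AG120 day 5, with a log2 fold change of 0.93 (SE 0.25, adjusted p = 0.00702). At day 14 it was at 12.1 and 10.9 in vehicle and 14.6 and 20.4 in AG120, and the fold change of 0.62 did not pass. Rfc3 gave -0.17 and 0.31 and Rfc5 0.32 and 0.56 at the 2 days, and of these values that of Rfc5 at day 14 passed (adjusted p = 0.0376). Fen1, the flap nuclease, was at 50.02, 51.1 and 61.3 CPM in vehicle day 5 and 69.2, 86.2 and 87.0 in AG120 day 5, a log2 fold change of 0.58 (SE 0.17, adjusted p = 0.014). Its reads cannot be told from those of Gm10143, which shares 1909 exon bases on the opposite strand, had the same count in 2 of the 14 libraries and had a Pearson r of 0.999 with it.

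Rfc2, another clamp loader subunit (chr5:134581366-134601805, + strand), was the 1 gene of the 41 that passed as lower, and Gins2 missed the threshold in the same fit. It was at 305, 272 and 276 CPM in vehicle day 5 and 85.1, 66.6 and 68.5 in AG120 day 5, and at 225 and 265 in vehicle day 14 and 66.8 and 56.9 in AG120 day 14. The log2 fold change was -1.95 (SE 0.18, adjusted p = 6.03e-07) at day 5 and -1.99 (SE 0.23, adjusted p = 6.26e-06) at day 14. Rfc2 shares 952 exon bases at its end with Lat2, a signaling adaptor of myeloid and mast cells encoded on the opposite strand. Lat2 itself changed by -3.36 (adjusted p = 1.83e-07) and -4.51 (adjusted p = 3.11e-07) on the log2 scale, and the 2 genes had a Pearson r of 0.973 in log2 CPM over the 14 libraries. Rfc2 CPM minus Lat2 CPM was 74.6 to 84.1 with vehicle and 49.6 to 60.2 with AG120 at day 5, 66.8 to 75.8 and 47.5 to 61.4 at day 14, and 48.1 to 74.2 in relapse. Whether counting used strand is not stated, so reads of the pair cannot be told apart.

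**Figure D3:**
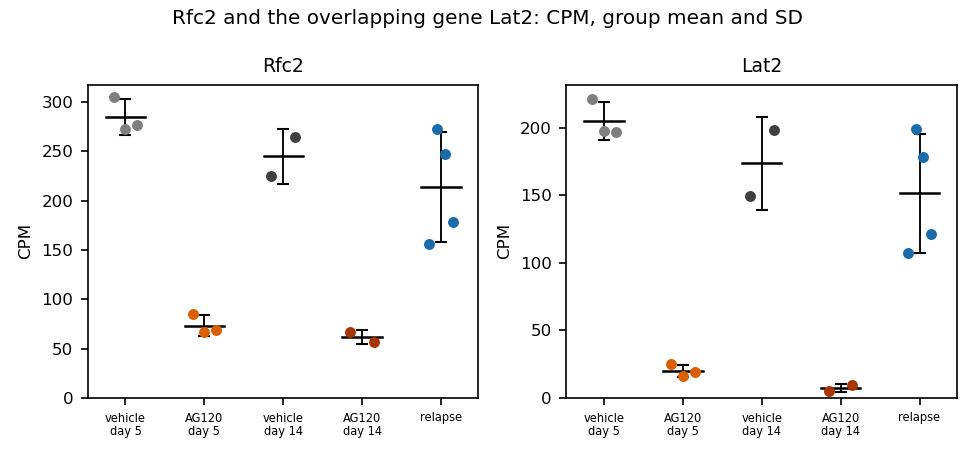
CPM of Rfc2 and of the overlapping gene Lat2 in each library (points) by group, with group means and SD as bars. Both are low in all 5 AG120 libraries, at 56.9 to 85.1 CPM for Rfc2 and 5.36 to 24.9 for Lat2, and the relapse libraries lie at 156 to 273 and 107.5 to 199.

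Of the 28 replication genes that share no exon base with another gene model, 10 rose and 0 fell at day 5, beside 20.1% and 19.3% of all genes, and 10 rose and 0 fell at day 14, beside 16.8% and 17.9%, by edgeR. At an unadjusted p under 0.05 by edgeR there were 11 and 15 of the 28, all higher. Of all 11994 genes, 2940 were higher and 2819 lower at that cut at day 5, and 2590 and 2739 at day 14. Of the 13 that share exon bases, 5 rose and 1 fell at day 5, and 6 rose and 1 fell at day 14.

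In nucleotide supply, Rrm1 passed at both days and the other 3 genes at neither. Rrm1, the large subunit of ribonucleotide reductase (chr7:102441695-102469771), was at 64.5, 64.4 and 73.9 CPM in vehicle day 5 and 109, 115 and 123 in AG120 day 5, and at 76.6 and 70.8 in vehicle day 14 and 179 and 154 in AG120 day 14. The groups were apart at both days, with log2 fold changes of 0.78 (SE 0.14, adjusted p = 0.000456) and 1.18 (SE 0.18, adjusted p = 8.36e-05). Rrm2, its small subunit, was at 14.6, 17.8 and 22.9 CPM in vehicle day 5 and 23.1, 27.2 and 22.5 in AG120 day 5, which overlap, and at 21.3 and 18.9 against 39.3 and 43.5 at day 14, which do not. Its day 14 value of 1.05 (SE 0.42) had an adjusted p of 0.0753. Tyms, thymidylate synthase, gave -0.17 and -0.13, and Tk1, thymidine kinase, gave -0.02 and 0.50, all short of the threshold.

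Of the chromatin genes, 3 that handle histones passed and 3 tied to DNA methylation did not; the difference between them was not tested. Chaf1b, a subunit of the assembly factor CAF-1, rose at both days, by 0.57 (SE 0.18, adjusted p = 0.021) and 0.80 (SE 0.23, adjusted p = 0.0118), and its partner Chaf1a at day 14, by 0.69 (SE 0.18, adjusted p = 0.00654). Chaf1a shares 4648 exon bases with Ubxn6 on the opposite strand, with a Pearson r of 0.736. Slbp, which binds the stem-loop of histone messages, rose by 0.37 (SE 0.14, adjusted p = 0.041) and 0.47 (SE 0.17, adjusted p = 0.0406). Uhrf1, which guides maintenance methylation behind the fork, was at 112, 116 and 129 CPM in vehicle day 5 and 111, 119 and 133 in AG120 day 5, with values of 0.02 (95% interval -0.32 to 0.37) and 0.11 (-0.32 to 0.54). Hells, a remodeler that aids methylation, gave -0.07 and -0.05, and Cdca7, its partner, gave 0.01 and -0.58, none past the threshold.

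In fork protection and repair, Clspn, Tipin and Dtl rose at both days and Rpa2 at day 14. Clspn, the claspin mediator of the replication checkpoint, was at 57.3, 62.4 and 61.0 CPM in vehicle day 5 and 78.7, 71.8 and 71.9 in AG120 day 5, and at 58.3 and 53.2 in vehicle day 14 and 99.8 and 98.7 in AG120 day 14. The log2 fold change was 0.30 (SE 0.11, adjusted p = 0.0471) at day 5 and 0.83 (SE 0.14, adjusted p = 0.000259) at day 14. Tipin, a fork protection subunit, rose by 0.47 and 0.63, and Dtl, the adaptor of the ligase that destroys Cdt1 in S phase, by 0.32 and 0.39. Rpa2, a subunit of the single-strand binding protein RPA, was at 69.3 and 74.8 CPM in vehicle day 14 and 92.1 and 100.3 in AG120 day 14, a log2 fold change of 0.42 (SE 0.13, adjusted p = 0.021), after 0.24 (adjusted p = 0.088) at day 5. Ung, the uracil glycosylase that works at forks, gave -0.23 and -0.38, neither past the threshold.

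**Figure D4:**
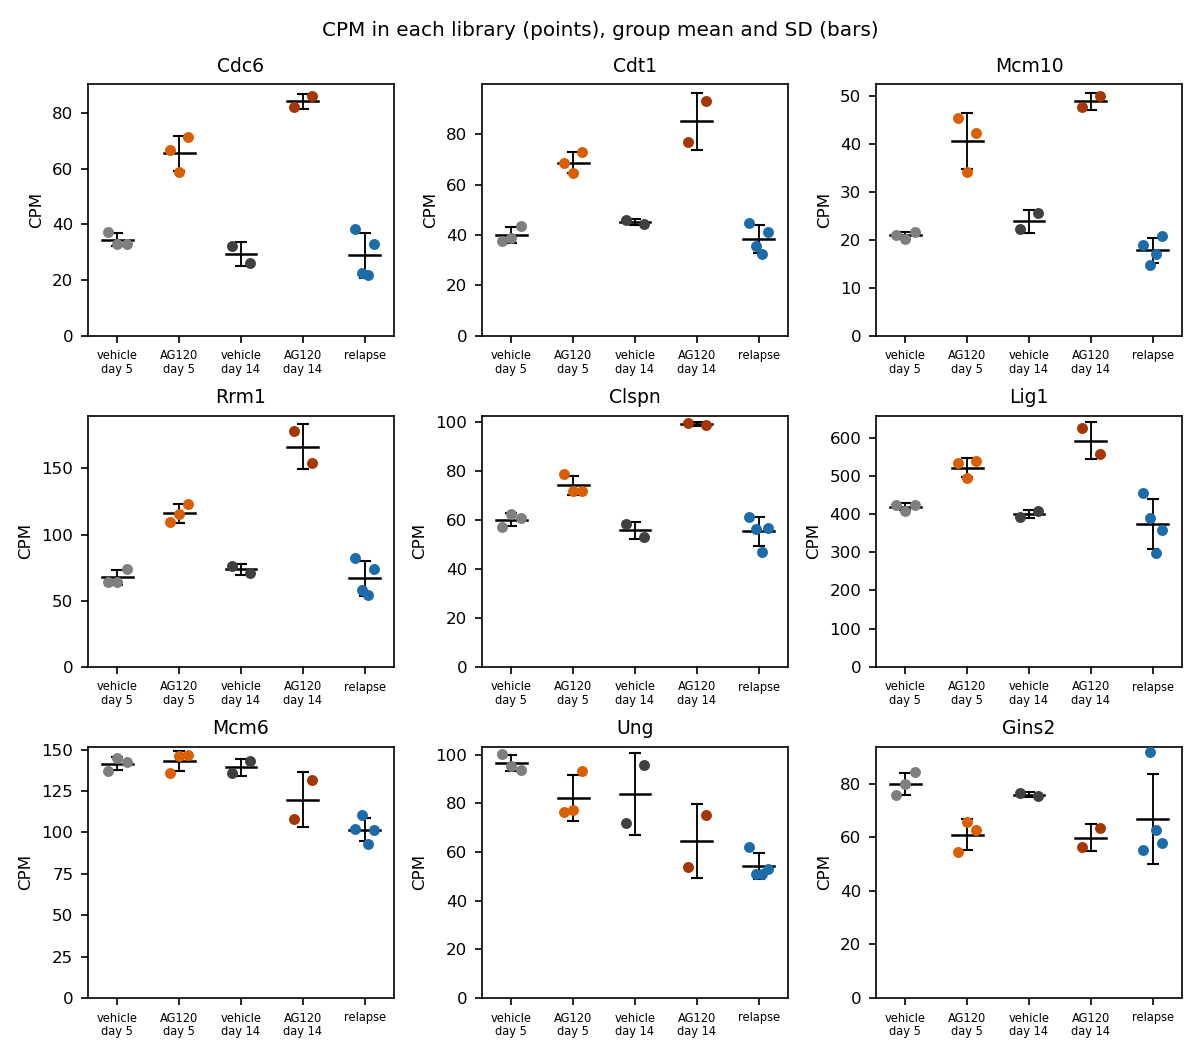
CPM of 9 replication genes in each library (points) by group, with group means and SD as bars. Cdc6, Cdt1, Mcm10 and Rrm1 are higher in every AG120 library than in every vehicle library, and Mcm6 and Ung are lower in every relapse library than in every vehicle library.

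The effects at the 2 days come from separate libraries. Of the 41 genes, 12 rose at both days, 3 at day 5 only, 4 at day 14 only, 1 fell at both, and 21 passed at neither. The fitted effect was larger at day 14 for 34 of the 41, beside 5416 of all 11994 genes. It had the same sign at both days for 36 of the 41, and correlated across genes with a Pearson r of 0.899 and a Spearman rho of 0.857 (r = 0.81 without Rfc2), where genes are not independent replicates. Calls at both days, the sign and the correlation were not worked out over all genes. The difference between the days was tested directly. By edgeR, 0 of the 41 passed in either direction, and DESeq2 also called 0, while 0.208% of all genes passed as larger and 0.725% as smaller at day 14. At an unadjusted p under 0.05 by edgeR there were 3, all larger, beside 576 larger and 905 smaller of 11994 genes. The median difference was 0.13 over the 41 and -0.06 over all genes. Clspn had a difference of 0.53 (SE 0.18, adjusted p = 0.216), Rfc3 one of 0.48 (SE 0.19, adjusted p = 0.286) and Cdc6 one of 0.60 (SE 0.28, adjusted p = 0.405). The vehicle groups were also compared: from day 5 to day 14, 0 of the 41 passed by edgeR (2 at an unadjusted p under 0.05, beside 574 of 11994 genes) and 0 by DESeq2. By edgeR 0% of all genes passed either way, and the median of the 41 was 0.00.

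In relapse most of the replication genes were lower than under AG120. The mean of 32 of the 41 was below both vehicle means, a count not made over all genes. Relapse was set against the mean of both vehicle groups and against the mean of both AG120 groups. These 2 comparisons share the relapse libraries, and each shares vehicle or AG120 libraries with the treatment effects above, so their values are given side by side and not as independent results. Against AG120, 30 of the 41 fell and 1, Rfc2, rose, where 26.1% of all genes fell and 27.9% rose, and the median was -0.52 against 0.01 over all genes. By role the lower ones were 8 of 8 in licensing, 2 of 6 in helicase activation, 5 of 5 polymerase genes, 6 of 7 in the clamp and lagging strand, 1 of 4 in nucleotide supply, 3 of 6 in chromatin and histones, and 5 of 5 in fork protection. Of the 41, 22 had all 4 relapse libraries below all 5 AG120 libraries, and 1, Rfc2, had them above. How many of all genes had such gaps was not counted. The erythroid markers fell in the same comparison, 8 of 14, to a summed CPM of 81.8 to 486 in relapse, and their part was not tested.

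Cdc6, Mcm10, Rrm1 and Cdt1, which had risen under AG120, had the largest falls from AG120 to relapse. Cdc6 was at 38.5, 22.4, 22.0 and 32.9 CPM in the 4 relapse libraries, Cdt1 at 44.7, 35.6, 32.4 and 41.03, and Mcm10 at 19.0, 14.8, 17.02 and 20.8. All of these values lie below each AG120 library and mostly within or under the vehicle range. Against AG120 the log2 fold changes were -1.36 (SE 0.15, adjusted p = 1.48e-06) for Cdc6, -0.99 (SE 0.11, adjusted p = 1.54e-06) for Cdt1, -1.31 (SE 0.12, adjusted p = 1.85e-07) for Mcm10 and -1.05 (SE 0.12, adjusted p = 2.13e-06) for Rrm1. Against vehicle the same genes gave -0.14 (95% interval -0.46 to 0.19), -0.15 (-0.38 to 0.09), -0.32 (-0.58 to -0.06) and -0.07 (-0.33 to 0.18), none past the threshold. Of the genes with the highest mean CPM of their role, Mcm3 (-0.40), Pola1 (-0.49), Lig1 (-0.57) and Rpa2 (-0.47) also passed as lower than in AG120, and Gins2 (0.14) and Uhrf1 (-0.29) did not pass. Rfc2 was at 156, 273, 248 and 178 CPM in relapse, and it rose by 1.67 (SE 0.15, adjusted p = 1.6e-07) against AG120, as Lat2 did by 3.62 (adjusted p = 6.78e-09).

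Against vehicle, 2 of the 41 fell and 0 rose, where 0.0834% of all genes fell and 0.1% rose, so few genes of any kind passed in this comparison. With an unadjusted p under 0.05 by edgeR there were 13 of the 41, all lower, beside 622 lower and 768 higher of all 11994 genes. Of the 41, 35 had a negative value, as did 5645 of the 11994, and the median was -0.19 against 0.02 over all genes. Ung was at 62.0, 50.9, 50.9 and 52.9 CPM in relapse, against 100.2, 95.5 and 93.8 in vehicle day 5 and 72.0 and 95.9 in vehicle day 14. Mcm6 was at 102, 110.3, 93.2 and 101 in relapse, against 137, 145 and 143 in vehicle day 5 and 136 and 143 in vehicle day 14. Both were lower in 4 of 4 relapse libraries than in any vehicle library, with log2 fold changes of -0.73 (SE 0.12, adjusted p = 0.015) and -0.47 (SE 0.09, adjusted p = 0.044). These calls depended on the libraries and the fit: Ung lost its call without any of the 3 vehicle day 5 libraries or without vehicle day 14 replicate 2 (adjusted p 0.0503 to 0.173), and Mcm6 without any of the 5 vehicle libraries or without relapse replicate 4 (0.0741 to 0.266). Both calls were also lost with the replicate number as a block (0.0851 and 0.111) and with only the groups compared fitted (0.0573 and 0.136). Without any of the 3 vehicle day 5 libraries, or without vehicle day 14 replicate 2, the count was 0, without vehicle day 14 replicate 1 or relapse replicate 4 it was 1, and without relapse replicate 1 it was 3.

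None of the other Mcm genes passed against vehicle. Mcm2 was at 44.7, 32.5, 22.4 and 36.5 CPM in relapse and 41.8 to 55.3 in the vehicle libraries, with -0.55 (SE 0.15, adjusted p = 0.157). Mcm3, Mcm4 and Mcm5 gave -0.27 (adjusted p = 0.329), -0.35 (0.216) and -0.40 (0.176), and all 4 relapse libraries were under all 5 vehicle libraries for each of them. Such a gap was found for 6 of the 41 genes in all, the others being Mcm6, Ung and Slbp (-0.45, adjusted p = 0.116). The share of all genes with this gap was not counted. Mcm7 was at 147, 126, 118 and 133 CPM in relapse against 125 to 144 in vehicle, with -0.04 (95% interval -0.23 to 0.14). The difference between Mcm7 and the other subunits was not tested. The summed CPM of the 8 licensing genes was 607 ± 80.2 (SD, n = 4) in relapse. Under vehicle it was 733 ± 9.26 (SD, n = 3) at day 5 and 747 ± 10.9 (SD, n = 2) at day 14, and under AG120 886 ± 31.4 (SD, n = 3) and 970 ± 23.1 (SD, n = 2).

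**Figure D5:**
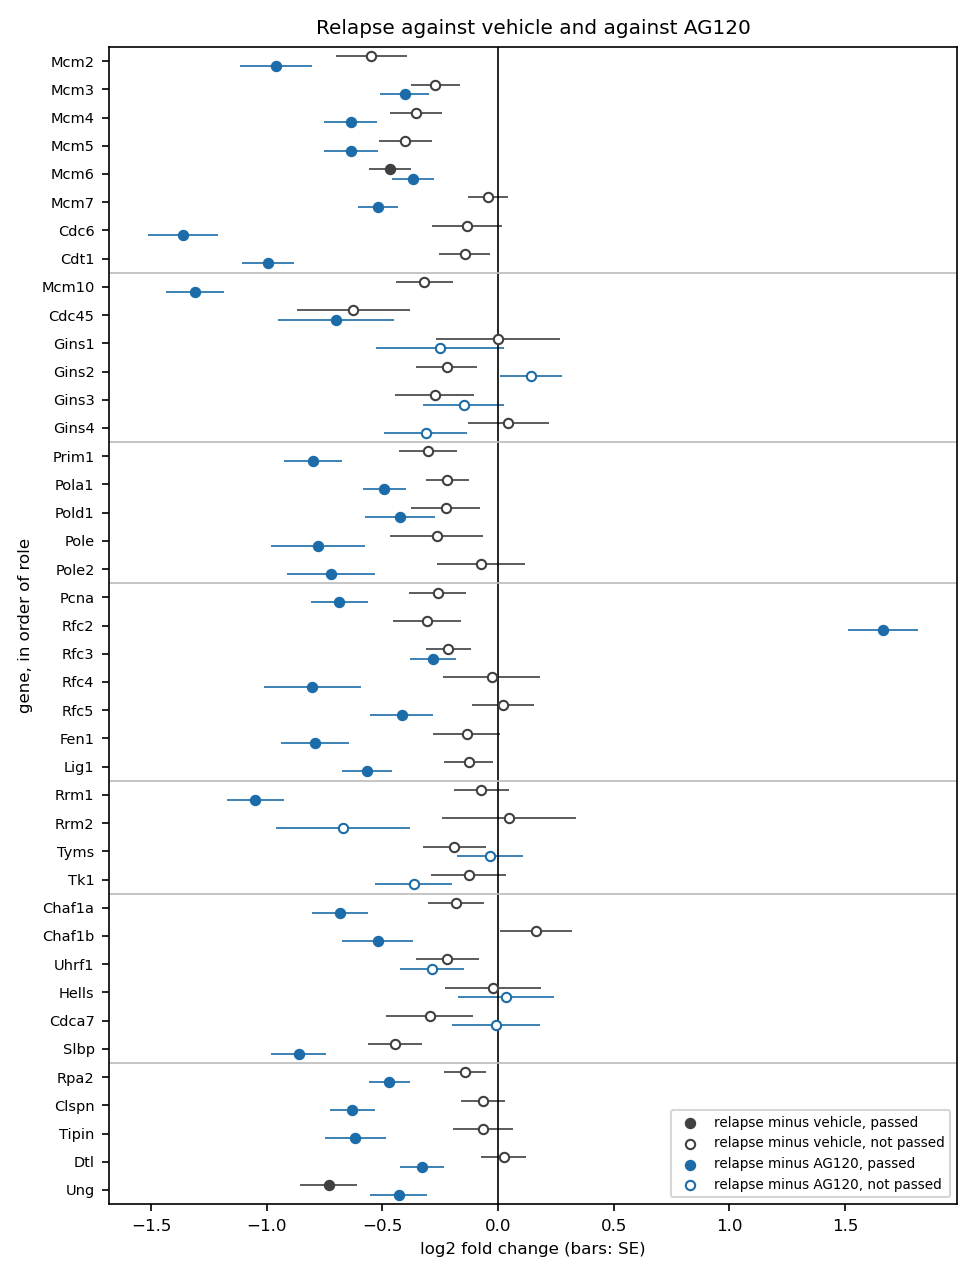
Log2 fold change of relapse against the mean of both vehicle groups and against the mean of both AG120 groups for each of the 41 genes, with standard errors as bars. Filled points passed edgeR's test. Against AG120, 30 genes are filled and lower, and against vehicle Mcm6 and Ung are.

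The spread between mice was larger in relapse than in the other groups, for these genes as for all genes. The main fit gives each gene 1 estimate of spread over all groups, so its p-values assume the same spread in each. The median SD of the 41 genes on the log2 scale was 0.278 in relapse, 0.094 and 0.119 under vehicle and AG120 at day 5, and 0.104 and 0.136 at day 14. That of all genes was 0.322, 0.16, 0.182, 0.146 and 0.209 in the same order. Rrm2 had the largest SD in relapse, 0.803, with libraries at 30.2, 11.03, 10.7 and 27.8 CPM, and Dtl the smallest, 0.089. Hells, with the same replicates on top, was at 110.5, 48.2, 49.1 and 86.7 CPM. Replicates 1 and 4 were both above replicates 2 and 3 for 28 of the 41 genes (68.3%), against 29.6% of all genes tested, and replicate 3 was the lowest for 27 (65.9%, against 21.2%). The summed CPM of all 41 was 2552, 2297, 1930 and 2313 in relapse replicates 1 to 4. Rfc2, whose reads cannot be told from those of Lat2, held 156, 273, 248 and 178 of these.

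Markers of other cells differed between the same 4 mice. Erythroid markers summed to 84.5, 176, 486 and 81.8 CPM in relapse replicates 1 to 4, neutrophil markers to 2517, 1707, 669 and 1718, Itgam to 53.4, 13.9, 16.1 and 35.4, and the progenitor pair to 205, 218, 214 and 154. Replicate 3, lowest for most replication genes, thus had the most erythroid and the least neutrophil signal, and replicates 1 and 4 the most Itgam. The part of these differences was not tested. Without relapse replicate 3, 2 of the 41 genes were lower than vehicle and 26 lower than AG120. Without replicate 2 these counts were 2 and 28. The counts over all genes in these fits are not given.

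The rest of the replication machinery was read from 50 genes that are not among the 41, in 3 lists. At day 5, 24 of the 50 rose and 2 fell, with a median of 0.38, beside 20.1% and 19.3% of all genes. At day 14, 25 rose and 4 fell, beside 16.8% and 17.9%. The list of origin recognition and firing genes held 15, of which 11 rose at day 5, among them all 6 subunits of the origin recognition complex, and 8 at day 14, when Orc3 (0.25) and Orc4 (-0.07) did not pass. Orc5 rose by 1.80 (SE 0.34, adjusted p = 0.000498), from 2.25 ± 0.97 (SD, n = 3) to 7.78 ± 1.67 CPM (SD, n = 3), and Recql4, a helicase that helps origins to fire, by 1.43 (SE 0.34, adjusted p = 0.00343). Gmnn, geminin, which holds Cdt1 back after licensing, rose by 0.76 (adjusted p = 0.00262). It and the origin subunits are given by name after their values were seen.

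Of 21 other polymerase, clamp and fork subunits, 9 rose and 1 fell at day 5, and 12 rose and 1 fell at day 14. Pole3, a histone-fold subunit of polymerase epsilon, rose by 1.04 (SE 0.15, adjusted p = 4.79e-05), and Rpa3, the small subunit of RPA, by 0.92 (SE 0.32, adjusted p = 0.033). Pold4, the small subunit of polymerase delta, fell by 1.29 (SE 0.38, adjusted p = 0.0138), from 3.49 ± 0.915 to 1.42 ± 0.706 CPM (SD, n = 3 each). It had few counts: its lowest AG120 day 5 library was at 0.671 CPM, where 3 counts are 0.456 to 0.503 CPM. Of 14 other nucleotide and chromatin genes, 4 rose and 1 fell at day 5, and 5 rose and 3 fell at day 14, against the same shares of all genes. Supt16, a subunit of the histone chaperone FACT, rose by 0.79 (SE 0.12, adjusted p = 7.48e-05) and Ctps, which makes CTP, by 0.75 (SE 0.15, adjusted p = 0.000728). Samhd1, which breaks down deoxynucleotides, fell by 0.85 (SE 0.12, adjusted p = 3.27e-05), from 54.8 ± 4.25 to 30.5 ± 2.62 CPM (SD, n = 3 each), as Rrm1, which makes them, rose. In relapse, 34 of the 50 were lower and 3 higher than in AG120, beside 26.1% and 27.9% of all genes. Against vehicle 0 passed by edgeR, beside 0.0834% lower and 0.1% higher. With an unadjusted p under 0.05 there were 10, all lower, beside 622 lower and 768 higher of 11994 genes.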

How the data were processed

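Whole-transcriptome 3′ sequencing of sorted leukemic progenitors from 14 mice was analysed from 1 table of raw counts per gene that the authors deposited. Per the submitters' processing notes, the tools included HISAT2 2.1.0, featureCounts of Subread 1.6.3, cutadapt 1.14, bcl2fastq 2.17.1.14, and, in R 3.6.2, edgeR 3.28.1 with limma 3.42.2, on build mm10. The use of strand, of reads matching several places and of molecular identifiers is not given in the sources used here, and antisense or overlapping genes can therefore share reads. Symbols were matched by Ensembl identifier (52403 of 52636 named, 22670 without a count). Positions come from the GENCODE annotation of GRCm38, the assembly of mm10, and promoter windows from RefSeq.

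Here, genes were filtered with filterByExpr (minimum count 10), TMM scaling was applied, and the quasi-likelihood test of edgeR was fitted (edgeR 4.0.16, R 4.3.3; robust, 1 coefficient per group, all 14 libraries, 9 residual degrees of freedom). P-values were adjusted by Benjamini-Hochberg over 11994 genes, with 0.05 as the threshold. The 6 comparisons were AG120 against vehicle at each day, the difference of those effects, relapse against the mean of both vehicle or both AG120 groups, and vehicle between the days. Each gene has 1 estimate of spread for all groups in this fit, although the spread between mice was larger in relapse. SE is the log2 fold change over the square root of F. The fit was tested on simulated counts. The 5 ribosomal RNA gene models were kept. Counting error is large for genes of few counts, and intervals and limits do not cover error before counting. No pair of replicates agreed within sampling noise.

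The 41 genes, their roles and the other lists were chosen with earlier results of these data known. Named with full values were, in each comparison, up to 4 rises and 4 falls of largest size among those that passed and the gene of highest mean CPM in each role, and of the other lists up to 2 per list and direction. Further genes named were chosen after their values were seen. Ahsp, an erythroid marker, had no match by symbol. Alternatives were median ratio size factors, no filter, removal of the ribosomal RNA models, a replicate block, only the groups compared, DESeq2 1.42.0 and leaving out each library.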

Additional observations from a re-analysis of the deposited data

Results flagged for a closer look

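In the relapse group of 4, each of the 41 genes was examined for a library set apart from the other 3. Chance gives such a library in about 1 of 20 groups. Of the 41 genes 2 had one, about as many as chance gives. Rfc4 was at 4.27 CPM in relapse replicate 2, with the other 3 at 9.81 to 10.7, a gap of 0.899 of the whole range on the scale of log2 CPM with a prior count of 2. Rpa2 was at 75.9 CPM in the same library, with the other 3 at 66.3 to 67.1, a gap of 0.91 of the range on that scale. The 2 genes lie at opposite ends in that library, Rfc4 lowest and Rpa2 highest.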

How the results depend on the processing

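The medians over the 41 genes kept their sign, or moved by less than the spread between libraries, under every setting run. The number that passed depended more on the settings. How many of all genes passed under each setting is not given, so these counts do not single out the 41. At day 5 it was 16, but 28 (24 higher, 4 lower) when only the groups compared were fitted and 9 to 12 when a library was left out. At day 14 it was 17, but 11 (9 higher, 2 lower) with no filter on low counts and 9 to 13 when a library was left out. The difference between the days gave 3 in place of 0, and vehicle at day 14 against day 5 gave 1 in place of 0, when only the groups compared were fitted. Relapse against vehicle gave 4 with no filter, 0 with only the groups compared, and 0 to 3 with a library left out, in place of 2. Relapse against AG120 stayed between 27 and 34, against 31. Counts at day 5 fell by over 1.5 times without vehicle day 5 replicate 1 (10), 2 (9) or 3 (10) or AG120 day 5 replicate 2 (9) or 3 (9), and at day 14 without vehicle day 14 replicate 1 (9) or 2 (9) or AG120 day 14 replicate 1 (10). Fewer samples enter those fits; otherwise the cause was not tested.

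Same-numbered vehicle and AG120 libraries deviated together only weakly (r of 0.107, 0.0491 and 0.0171 at day 5 and 0.0685 at day 14), and the labels do not pair them. With the replicate number as a block the count for relapse against vehicle was 0 (Ung adjusted p = 0.0851, Mcm6 adjusted p = 0.111), and the block moved no other count of calls by over 1.5 times. Of 743 values of the named genes under other settings, 711 kept their call, 21 lost one, 11 gained one and 0 changed sign while called. Groups of 2 left alone by leaving out a library assume that the lone sample varies like the others. With 2 to 4 mice a group and 1259982 to 3358874 usable counts, changes of genes with few counts, such as Gins1 and Pole2, are measured with wide intervals.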

Other observations

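A list of 25 genes of mitosis was measured beside the replication genes. At day 5, 15 of the 25 rose and 0 fell by edgeR, beside 20.1% and 19.3% of all genes. The median log2 fold change was 0.52, against 0 over all genes. At day 14, 13 rose and 0 fell, beside 16.8% and 17.9%, with a median of 0.55 against -0.005. At an unadjusted p under 0.05 by edgeR there were 17 at each day, all higher. Of 11994 genes, 2940 were higher and 2819 lower at that cut at day 5, and 2590 and 2739 at day 14. Hmmr, a spindle protein, rose by 0.92 (SE 0.15, adjusted p = 0.000149) at day 5 and 1.12 (SE 0.19, adjusted p = 0.000199) at day 14, and Mki67, the Ki-67 antigen of cycling cells, by 0.52 (SE 0.12, adjusted p = 0.00232) and 0.99 (SE 0.14, adjusted p = 6.12e-05). Cdk1, the kinase that starts mitosis, did not pass, with 0.21 (adjusted p = 0.475) and 0.02 (adjusted p = 0.975). In relapse, 16 of the 25 were lower and 1, Kif23, higher than in AG120, beside 26.1% and 27.9% of all genes. Against vehicle 0 passed by edgeR, beside 0.0834% lower and 0.1% higher, and the median was 0.08 against 0.02. At an unadjusted p under 0.05 there were 3, all higher, beside 768 higher and 622 lower of 11994 genes. These genes were named after their values were seen. The summed CPM of the list was 1645, 1239, 1251 and 1605 in relapse replicates 1 to 4.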
